A study of Mus musculus with 20 samples.

Results

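The Kruppel-like factors are zinc finger transcription factors, and 9 of their genes, Klf2, Klf3, Klf4, Klf5, Klf6, Klf9, Klf10, Klf13 and Klf15, were followed in the uterus of pregnant mice. They were taken by gene symbol and were 9 of the 45777 genes listed. RNA-seq of polyA RNA from whole uterine tissue was run on 20 wild-type (WT) B6D2F1 females aged 8 to 12 weeks, all collected at 18:00 on day 3.5 of pregnancy, before embryo attachment. The control mice (n = 5) were labelled as untreated, and the implantation failure (IF) mice (n = 5) were given RU486 under the skin on the morning of day 3.5. The PBMC mice (n = 5) had the same RU486 and, on day 1.5, an intrauterine dose of peripheral blood mononuclear cells that had been taken from non-pregnant mice and cultured without hCG. The PBMC-hCG mice (n = 5) had RU486 and cells cultured with hCG. RU486 (mifepristone) blocks the progesterone and glucocorticoid receptors, and hCG is the gonadotropin of early human pregnancy. RU486 and its injection cannot be told apart in these groups. No library analysed here came from a mouse given medium alone, so the cells and the intrauterine procedure cannot be told apart.

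Kruppel-like factors bind GC-rich and CACCC elements through their zinc fingers, and the rest of the protein decides whether they recruit activators or repressors. KLF2, KLF4, KLF5 and KLF6 often recruit histone acetyltransferases, KLF3 recruits the corepressor CtBP, and KLF9, KLF10 and KLF13 recruit the corepressor SIN3A. In the uterus the family is known for its link to the steroid hormones: KLF9 is a partner of the progesterone receptor, KLF5 is needed for a receptive epithelium, and KLF15 restrains DNA replication in the hormone-primed epithelium.

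The upstream sequences of 4 of the members called in IF versus control are shown: Klf9 and Klf15, which were lower, and Klf3 and Klf13, which were higher. Klf4 was also higher, and its window is not printed. Each run is the 250 bases before a RefSeq transcript start in GRCm38.p6, the patched form of the mm10 build, written 5′ to 3′ on the strand of the gene. Capitals mark the GC box (GGGCGG, or CCGCCC on the other strand) and the CACCC element (CACCC, or GGGTG on the other strand), and matches that touch or overlap run together. The Klf9 window is chr19:23140976-23141225 on the plus strand, directly before the annotated gene. The Klf15 window is chr6:90462326-90462575 on the plus strand and lies within the annotated span of the gene, which begins further upstream. The Klf3 window is chr5:64803271-64803520 on the plus strand and the Klf13 window is chr7:63938916-63939165 on the minus strand, each directly before its annotated gene.
Klf9: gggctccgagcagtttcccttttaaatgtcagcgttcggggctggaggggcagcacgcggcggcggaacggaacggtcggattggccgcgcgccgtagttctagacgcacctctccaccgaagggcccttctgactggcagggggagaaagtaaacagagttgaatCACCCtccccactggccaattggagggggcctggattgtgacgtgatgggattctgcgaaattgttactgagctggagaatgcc
Klf15: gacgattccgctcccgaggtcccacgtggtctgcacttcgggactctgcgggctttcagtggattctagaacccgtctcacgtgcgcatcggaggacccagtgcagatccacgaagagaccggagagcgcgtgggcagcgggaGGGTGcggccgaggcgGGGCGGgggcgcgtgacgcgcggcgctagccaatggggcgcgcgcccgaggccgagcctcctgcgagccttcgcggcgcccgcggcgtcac
Klf3: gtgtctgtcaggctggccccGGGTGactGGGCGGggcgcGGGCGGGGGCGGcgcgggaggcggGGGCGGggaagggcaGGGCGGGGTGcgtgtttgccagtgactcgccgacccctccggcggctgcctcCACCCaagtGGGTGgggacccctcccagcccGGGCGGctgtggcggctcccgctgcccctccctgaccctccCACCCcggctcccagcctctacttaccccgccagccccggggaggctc
Klf13: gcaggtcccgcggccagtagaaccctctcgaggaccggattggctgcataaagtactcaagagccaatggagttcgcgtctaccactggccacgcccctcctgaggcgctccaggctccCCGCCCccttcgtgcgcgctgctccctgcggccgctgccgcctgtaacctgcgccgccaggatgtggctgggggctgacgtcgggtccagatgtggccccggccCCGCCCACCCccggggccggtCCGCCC

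The windows differed in how many of these elements they held. Klf3 had 6 GC boxes and 5 CACCC elements, Klf13 had 3 and 1, Klf15 had 1 and 1, and Klf9 had 0 and 1. Of the windows not printed, that of Klf4 had 4 and 0. Those of Klf2 (2 and 1) and Klf6 (1 and 0) belong to members not called in IF versus control. Among 32851 windows of the same length from 27025 genes, 32.7% held a GC box and 52.0% a CACCC element on either strand. The CACCC element of Klf9 overlaps the end of an AP-1 site (TGANTCA, in 6.75% of windows) that begins 89 bases before the start. Klf9 also held 3 CCAAT boxes (CCAAT or ATTGG, in 33.8% of windows), Klf13 held 2 and Klf15 held 1. Those of Klf9 that begin 69 and 66 bases before the start overlap, on opposite strands. Klf15 had 2 E-boxes (CACGTG, in 6.02% of windows), which begin 228 and 172 bases before its start. The element bound by the glucocorticoid and progesterone receptors (in its full palindromic form in 0.00913% of windows) and the hexamer AGAACA (or TGTTCT, in 16.1% of windows) were not found in these letters for any of the 7 members matched, Klf2, Klf3, Klf4, Klf6, Klf9, Klf13 and Klf15. A match describes letters and was not measured as a bound site.

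Levels are in TPM, a transcript's share of its library after division by transcript length, so they can be compared between genes. All 9 members were above 0 TPM in all 20 libraries and were therefore among the 18706 genes tested. The uterine genes used as a check were detected in every library, led by Hoxa10 at 96.4 to 281 TPM. Control replicate 2 stood apart, with a mean correlation of 0.963 with the other controls. Its 7 stromal markers (Pdgfra, Vim, Col1a1, Col3a1, Dcn, Lum and Hand2) summed to 5142 TPM, against 8468 to 9027 TPM in the other 4 controls. Its 7 epithelial markers, named with Klf5 below, summed to 1029.6 TPM, against 563 to 682 TPM. Its 5 adipose markers (Adipoq, Plin1, Cfd, Fabp4 and Lep) summed to 584 TPM, against 3.43 to 32.3 TPM in the other 4 controls. IF replicate 5 followed at 134 TPM, and no other library exceeded 48.2 TPM. Where either library decides a call of a member, the value without it is given.

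The 9 genes were well expressed. Over the 20 mice the mean level of Klf9 was 67.0 TPM, of Klf2 65.6, Klf3 55.5, Klf4 50.4, Klf6 47.3, Klf13 41.5, Klf15 27.4, Klf10 26.6 and Klf5 25.0 TPM. Neighbours in this order were often not separated: Klf9 exceeded Klf2 in 10 of 20 mice, Klf4 exceeded Klf6 in 10 and Klf15 exceeded Klf10 in 12, whereas Klf13 exceeded Klf15 in 18. The order also differed by group. In control uteri Klf9 led at 85.3 TPM ± 21.5 (SD, n = 5) and exceeded Klf2 in 5 of 5 mice, while Klf5 was last at 17.8 TPM ± 4.01 (SD, n = 5). In IF uteri Klf2 (73.1 TPM ± 27.4, SD, n = 5) and Klf4 (63.0 TPM ± 15.0, SD, n = 5) came first, Klf9 was the fourth, and Klf15 was last at 22.0 TPM ± 4.76 (SD, n = 5).

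**Figure D1:**
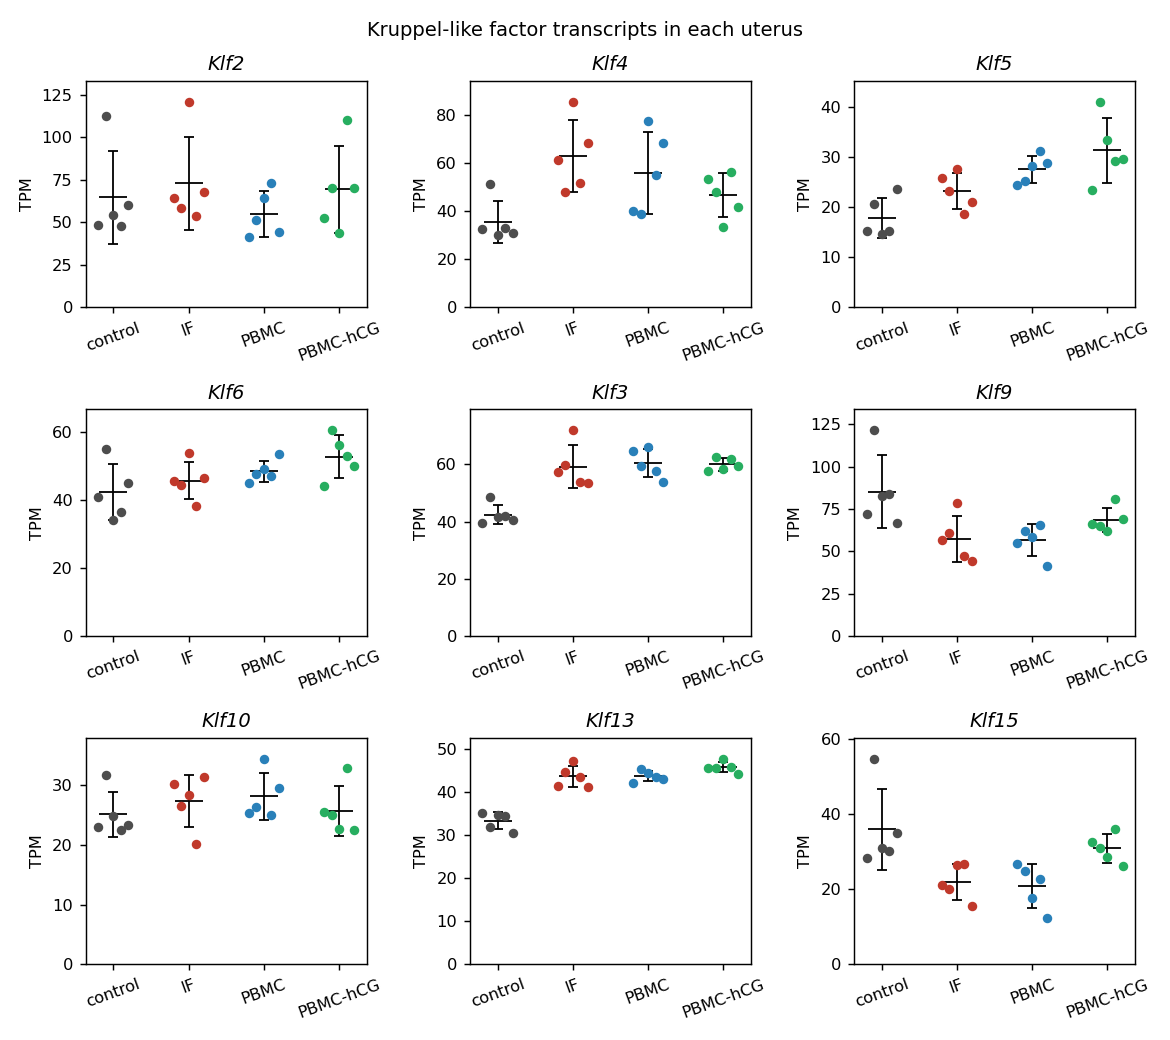
TPM (y axes, from 0) of each Kruppel-like factor in each of the 20 uteri, by group (x axes). Points are single mice in replicate order, and bars are the mean and SD of 5 mice. Klf3 and Klf13 lie higher in all 3 RU486 groups than in control, Klf9 and Klf15 lie lower in IF and PBMC, and the highest Klf9 and Klf15 points (122 and 54.9 TPM) are both control replicate 2.

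IF versus control asks how RU486 altered these genes on the evening before implantation. At an adjusted p under 0.05 (limma over 18706 genes, Benjamini-Hochberg), 5 of 9 members were called, Klf3, Klf4 and Klf13 higher and Klf9 and Klf15 lower. Over all genes tested, 21.9% were called, 13.4% higher and 8.53% lower. These are whole tissues, in which fewer cells of a type and less RNA per cell cannot be told apart. The median log2 fold change of the 9 members was 0.19, beside 0.02 for all genes. No change was large: none of the 9 reached a fold change of 2 with a raw p under 0.05, a rule that 4.03% of all genes met. The groups did not overlap for Klf3 and Klf13 (above) and Klf15 (below), and 12.8% of all genes had groups that did not overlap, 8.55% above and 4.27% below. Without IF replicate 5 the members called fell from 5 to 3, Klf3, Klf4 and Klf13. In the same fit the all-gene count fell from 4104 to 3323.

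Among the activators, Klf2 is known for keeping endothelium and T cells quiescent and is induced by blood flow. Its level was 48.7, 113, 54.6, 47.7 and 60.3 TPM in control replicates 1 to 5 and 64.7, 58.5, 121, 53.5 and 67.8 TPM in IF. It was 41.4, 51.3, 64.3, 73.5 and 44.6 TPM in PBMC and 52.9, 70.5, 43.8, 110.3 and 70.3 TPM in PBMC-hCG. In 3 of the groups a single mouse lay far above the others, and every pair of groups overlapped. The IF to control ratio was 1.14 (95% interval 0.771 to 1.69, limma adjusted p = 0.675), and no comparison called Klf2. Without control replicate 2 the log2 difference of IF from control went from 0.19 to 0.41 (adjusted p = 0.244). The interval for PBMC against IF ran from 0.520 to 1.14, so a fall to that lower bound is within the error. Klf2 was the most variable member, with a within-group SD of 0.46 on the log2 scale, higher than 88.5% of 15771 genes averaging at least 1 TPM.

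Klf4 promotes epithelial differentiation and, with Klf2, endothelial quiescence. Control uteri held 32.8, 51.2, 30.1, 33.2 and 31.1 TPM and IF uteri 61.3, 48.0, 85.7, 51.7 and 68.3 TPM. In PBMC the level was 40.1, 39.0, 77.8, 55.1 and 68.4 TPM, and in PBMC-hCG 53.6, 47.9, 33.7, 56.3 and 41.8 TPM. Apart from control replicate 2, every IF mouse lay above every control, and the PBMC mice spread widest. Klf4 rose in IF by 0.82 on the log2 scale (SE 0.21, 1.76-fold, adjusted p = 0.0083 by limma), the largest difference among the members in that comparison. It was also higher in PBMC than in control, by 0.63 (SE 0.21, adjusted p = 0.0398). That second call did not hold in 7 of the 20 fits that left out a mouse, which were control replicates 1, 3, 4 and 5 and PBMC replicates 3, 4 and 5, with adjusted p from 0.0720 to 0.116. It was also lost with no filter, under median scaling, under quantile normalization and in the fit of its 2 groups alone, with adjusted p from 0.0670 to 0.0799. PBMC-hCG was 0.39 above control (SE 0.21, adjusted p = 0.159), and without control replicate 2 the difference was 0.53 (adjusted p = 0.0453). PBMC-hCG was 0.42 below IF (SE 0.21), a ratio of 0.745 with a 95% interval of 0.551 to 1.01 and an adjusted p of 0.151.

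Klf5 drives proliferation and barrier formation in epithelia and is required in the uterine epithelium for implantation. The control values were 15.2, 20.6, 14.6, 15.2 and 23.6 TPM and the IF values 25.8, 23.2, 27.6, 18.6 and 21.0 TPM. In PBMC Klf5 was 24.3, 25.2, 28.1, 31.2 and 28.7 TPM, and in PBMC-hCG 23.4, 41.0, 33.3, 29.1 and 29.6 TPM. All PBMC mice lay above all controls, and in PBMC-hCG all but replicate 1 did. Against control, Klf5 rose by 0.64 (SE 0.15, adjusted p = 0.0053) in PBMC and by 0.81 (SE 0.15, adjusted p = 0.000606) in PBMC-hCG, which were 1.56-fold and 1.75-fold. IF was 0.39 above control (SE 0.15, adjusted p = 0.0699) and missed the threshold. The IF difference passed it without control replicate 2 (0.45, adjusted p = 0.0419), control replicate 5 (0.50, adjusted p = 0.0212) or IF replicate 4 (0.47, adjusted p = 0.0408). Without control replicate 3 its adjusted p was 0.167. PBMC-hCG was 1.33-fold IF (95% interval 1.07 to 1.66, adjusted p = 0.0669). That difference passed the threshold without IF replicate 3 (0.48 on the log2 scale, adjusted p = 0.0339) or PBMC-hCG replicate 1 (0.51, adjusted p = 0.0249). It fell to 0.31 (adjusted p = 0.174) without PBMC-hCG replicate 2.

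Klf6 is an injury-responsive and widely expressed activator. It was 41.0, 55.0, 34.1, 36.6 and 44.9 TPM in control, 45.6, 44.3, 53.8, 38.3 and 46.4 TPM in IF, 45.0, 47.6, 49.2, 46.9 and 53.4 TPM in PBMC and 44.1, 60.6, 56.3, 53.0 and 50.05 TPM in PBMC-hCG. All pairs of groups overlapped. PBMC-hCG exceeded control by 0.33 (SE 0.11, 1.26-fold, adjusted p = 0.0326), and the ratio of IF to control was 1.09 (95% interval 0.923 to 1.28, adjusted p = 0.486). The PBMC-hCG call was lost in 6 of 20 fits that left out a mouse (control replicates 1, 3 and 4 and PBMC-hCG replicates 2, 3 and 4), with adjusted p from 0.0598 to 0.0965. It was also lost under median scaling (adjusted p = 0.123), under quantile normalization (adjusted p = 0.0671), with no filter (adjusted p = 0.0526) and in the fit of its 2 groups alone (adjusted p = 0.0789). PBMC was 0.21 above control (SE 0.11, adjusted p = 0.21), and 0.31 above it without control replicate 2 (adjusted p = 0.0298).

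Klf3 is a repressor that acts in fat, blood and muscle cells. Its control values were 39.7, 48.5, 41.7, 41.8 and 40.7 TPM, and its IF values were 57.4, 59.7, 72.0, 53.7 and 53.4 TPM. PBMC uteri held 64.8, 59.6, 65.9, 57.8 and 54.0 TPM and PBMC-hCG uteri 57.5, 62.6, 58.3, 61.9 and 59.5 TPM. Every mouse given RU486 lay above every control, and the 3 RU486 groups overlapped one another. Klf3 rose by 0.47 in IF (SE 0.077, 1.39-fold, adjusted p = 0.000221), by 0.51 in PBMC (adjusted p = 0.000141) and by 0.50 in PBMC-hCG (adjusted p = 0.000115), 3 comparisons that share the same controls. The intervals among the RU486 groups were narrow: PBMC was 1.02-fold IF (95% interval 0.915 to 1.15) and PBMC-hCG was 1.02-fold IF (0.910 to 1.14).

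Klf9 encodes a SIN3A-binding repressor that is induced by glucocorticoids and works with the progesterone receptor in endometrium. Control uteri held 72.2, 122, 82.5, 83.6 and 66.6 TPM and IF uteri 56.5, 60.7, 78.7, 47.1 and 44.5 TPM. The level was 55.2, 62.3, 58.3, 65.6 and 41.5 TPM in PBMC and 66.0, 65.1, 62.3, 80.8 and 68.8 TPM in PBMC-hCG. Only IF replicate 3 reached the control range among the IF mice, every PBMC mouse lay below every control, and PBMC-hCG overlapped both control and IF. Klf9 fell by 0.57 on the log2 scale in IF (SE 0.16, ratio 0.676, adjusted p = 0.018) and by 0.58 in PBMC (SE 0.16, ratio 0.671, adjusted p = 0.0175). PBMC-hCG was at a ratio of 0.819 to control (95% interval 0.646 to 1.04, adjusted p = 0.191) and 1.21 to IF (0.957 to 1.54, adjusted p = 0.231). Without control replicate 2, the log2 difference of PBMC-hCG from control went from -0.29 to -0.15 (adjusted p = 0.444). The 2 libraries of highest adipose marker sum lay at opposite ends for this gene. Control replicate 2 had both the highest adipose sum and the highest Klf9. IF replicate 5 had the second adipose sum and the lowest Klf9 of its group. Without both libraries the IF difference was -0.34 (adjusted p = 0.099), and without IF replicate 5 alone it was -0.48 (adjusted p = 0.0551), neither past the threshold. Fitted on the IF and control mice alone, the IF difference had an adjusted p of 0.0687. The part of adipose tissue in the difference was not tested.

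Klf10 is an early response gene to TGF-beta. It ranged from 22.6 to 31.7 TPM in control, 20.2 to 31.5 in IF, 25.0 to 34.5 in PBMC and 22.6 to 32.8 in PBMC-hCG, with medians of 23.4, 28.4, 26.4 and 25.0 TPM. All groups overlapped, and no comparison called it. Its IF to control ratio was 1.09 (95% interval 0.898 to 1.31, adjusted p = 0.572).

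Klf13 is a close relative of Klf9 and also binds SIN3A. The control values were 34.99, 31.9, 34.7, 34.4 and 30.5 TPM and the IF values 41.3, 44.6, 47.2, 43.5 and 41.1 TPM. PBMC uteri held 42.1, 45.2, 44.3, 43.5 and 42.9 TPM, and PBMC-hCG uteri 45.5, 45.6, 47.7, 45.7 and 44.2 TPM. The highest control stayed below the lowest mouse of each RU486 group. The summed level of 7 endothelial markers was split in the same way as Klf3 and Klf13, at 493 to 626 TPM in control and 771 to 908 TPM in the mice given RU486, and its part in their rise was not tested. Klf13 rose by 0.39 in IF (SE 0.049, 1.31-fold, adjusted p = 1.91e-05), by 0.39 in PBMC (adjusted p = 2.15e-05) and by 0.46 in PBMC-hCG (adjusted p = 3.3e-06). It was the steadiest member: its within-group SD was 0.066 on the log2 scale, and 1.79% of 15771 genes had a lower one. PBMC was 1.003-fold IF (95% interval 0.934 to 1.08). Klf9 and Klf13, close relatives by sequence, thus moved in opposite directions in IF and in PBMC versus control. In PBMC-hCG Klf9 was not called, and its IF call was lost in the refits given above.

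Klf15 controls amino acid and glucose metabolism and is induced by glucocorticoids. The control values were 28.5, 54.9, 31.1, 30.2 and 35.1 TPM, and the IF values 21.3, 20.1, 26.6, 26.8 and 15.4 TPM. In PBMC the level was 26.7, 24.9, 17.6, 22.8 and 12.4 TPM, and in PBMC-hCG 32.5, 31.1, 28.6, 36.1 and 26.2 TPM. All IF and all PBMC mice lay below all controls, whereas PBMC-hCG replicates 1 to 4 lay within the control range. Klf15 fell by 0.69 in IF (SE 0.21, ratio 0.620, adjusted p = 0.0217) and by 0.79 in PBMC (SE 0.21, ratio 0.578, adjusted p = 0.0106). PBMC-hCG was 0.18 below control (ratio 0.881, 95% interval 0.653 to 1.19, adjusted p = 0.531), and without control replicate 2 the log2 difference was -0.020 (adjusted p = 0.949). PBMC-hCG was 1.42-fold IF (95% interval 1.05 to 1.91, adjusted p = 0.0928) and 1.52-fold PBMC (1.13 to 2.05, adjusted p = 0.271), and neither passed the threshold over all genes. The exact two-sided permutation p of the second difference, not adjusted for the number of tests, was 0.0159. The smallest that 5 against 5 allows is 0.00794. In the same comparison the permutation p was 0.0238 for Klf13 and 0.0397 for Klf9. In the fit of IF and PBMC-hCG alone, the difference between these groups had an adjusted p of 0.0487. It passed in no fit that left out a mouse, with adjusted p from 0.0512 to 0.261. The highest of these came without IF replicate 5, with a log2 difference of 0.39. The adipose sums stand beside this gene as they do for Klf9: control replicate 2 was its highest mouse and IF replicate 5 the lowest of the IF group. Without both, the IF difference from control was -0.41 (adjusted p = 0.123), and without IF replicate 5 alone -0.57 (adjusted p = 0.0667). Their part in the result was not tested.

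**Figure D2:**
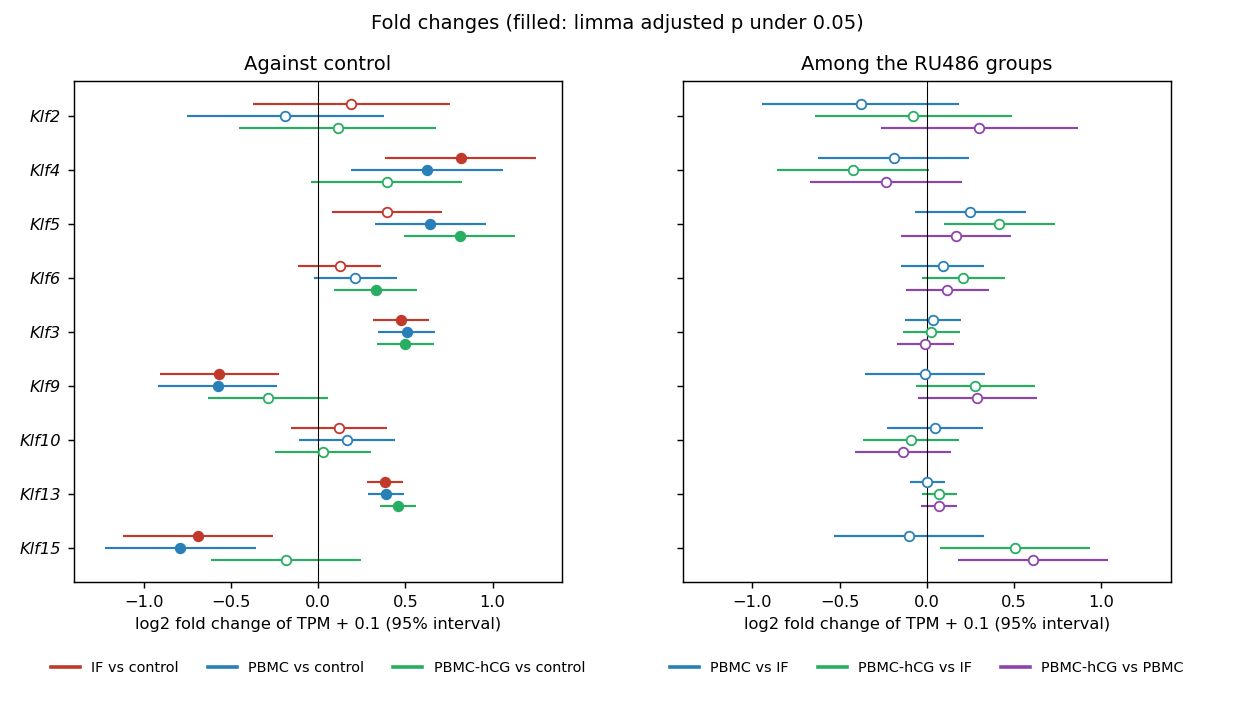
Log2 fold change of TPM + 0.1 (x axes) for each Kruppel-like factor (y axis), against control (left) and among the groups given RU486 (right). Lines are 95% intervals from the fit to all 20 mice, and filled points have a limma adjusted p under 0.05. Klf3 and Klf13 sit at 0.39 to 0.51 in all 3 comparisons with control, and no point on the right is filled.

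PBMC versus IF compares mice given RU486 with and without intrauterine cells cultured without hCG. None of the 9 members was called and none had a raw p under 0.05. Over all genes limma called 0 of 18706 (0% of the genes tested), and 6.79% had a raw p under 0.05. The largest member difference was that of Klf2, a ratio of 0.769 (95% interval 0.520 to 1.14), and the smallest was that of Klf13.

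PBMC-hCG versus IF does the same for cells cultured with hCG. Here too 0 of 9 members were called, beside 13.6% of all genes, and 2 members, Klf5 and Klf15, had a raw p under 0.05, beside 35% of all genes. The all-gene count of 2544 was itself unstable. It was 0 to 34 when IF replicate 2, 4 or 5 or PBMC-hCG replicate 2, 3, 4 or 5 was left out, and 4080 to 5061 without control replicate 2, PBMC-hCG replicate 1 or IF replicate 3. It was 0 without IF replicate 5 or PBMC-hCG replicate 3, so each gene called in this comparison loses its call without either mouse. Between the groups given cells, PBMC-hCG versus PBMC, 0 of 9 members and 0.0107% of all genes were called, and Klf15 had a raw p under 0.05, beside 16.2% of all genes. The all-gene count in that comparison was 2, and 7 without PBMC-hCG replicate 1.

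Against control, PBMC had 6 of 9 members called, Klf3, Klf4, Klf5 and Klf13 higher and Klf9 and Klf15 lower, beside 19.5% of all genes, 12.8% higher and 6.7% lower. PBMC-hCG had 4 of 9 called, Klf3, Klf5, Klf6 and Klf13, all higher, beside 31.8% of all genes, 20.2% higher and 11.6% lower. Klf9 and Klf15 were called lower in IF and in PBMC but not in PBMC-hCG. The direct differences of PBMC-hCG from IF and from PBMC did not pass for either gene, so the groups are not shown to differ. Groups did not overlap for 5 members in PBMC versus control, Klf3, Klf5 and Klf13 above and Klf9 and Klf15 below (12.7% of all genes, 8.65% above and 4.08% below), and for Klf3 and Klf13 in PBMC-hCG versus control, both above (18.3% of all genes, 13.2% above and 5.07% below). A fold change of 2 with a raw p under 0.05 was met by 0 of 9 members in either comparison, beside 3.34% and 4.74% of all genes. In all 3 comparisons with control, Klf3 and Klf13 were called with every pseudocount, filter, scaling and left-out mouse tried, and lost the call under the 2 rules that also ask for a fold change of at least 1.5 or 2.

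Within the family, some members varied together from mouse to mouse. Over the 20 mice, which share 4 groups, log2 levels of Klf9 and Klf15 had a Pearson r of 0.83 (Spearman rho 0.72), which was 0.69 after subtracting group means and 0.64 without the 2 mice of most extreme Klf9. Klf5 and Klf6 had an r of 0.85 (rho 0.78), 0.80 after subtracting group means and 0.76 without the 2 mice of most extreme Klf5. Both pairs therefore kept a relation after group means were subtracted. For Klf9 and Klf15, control replicate 2 was the highest control for both genes. IF replicate 5 and PBMC replicate 5 were the lowest of their groups for both. The r after subtracting group means was not taken without these libraries. Klf3 and Klf13 had an r of 0.87 (rho 0.78) over all mice but 0.26 after subtracting group means, so their shared pattern lay mainly between groups. Klf3 and Klf9 were the reverse, with an r of -0.26 over all mice and 0.81 within groups. The groups moved the pair apart, while mice of a group that were high in one tended to be high in the other. Control replicate 2 was the highest control for both, and IF replicate 3 the highest IF mouse for both. No within-group value without these mice was taken. PBMC replicates 3 and 1, the highest of their group in Klf3, held less Klf9 than PBMC replicates 2 and 4. Klf4 and Klf10 had an r of 0.68 (rho 0.69), 0.73 after subtracting group means. These values describe 20 libraries and have no test.

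**Figure D3:**
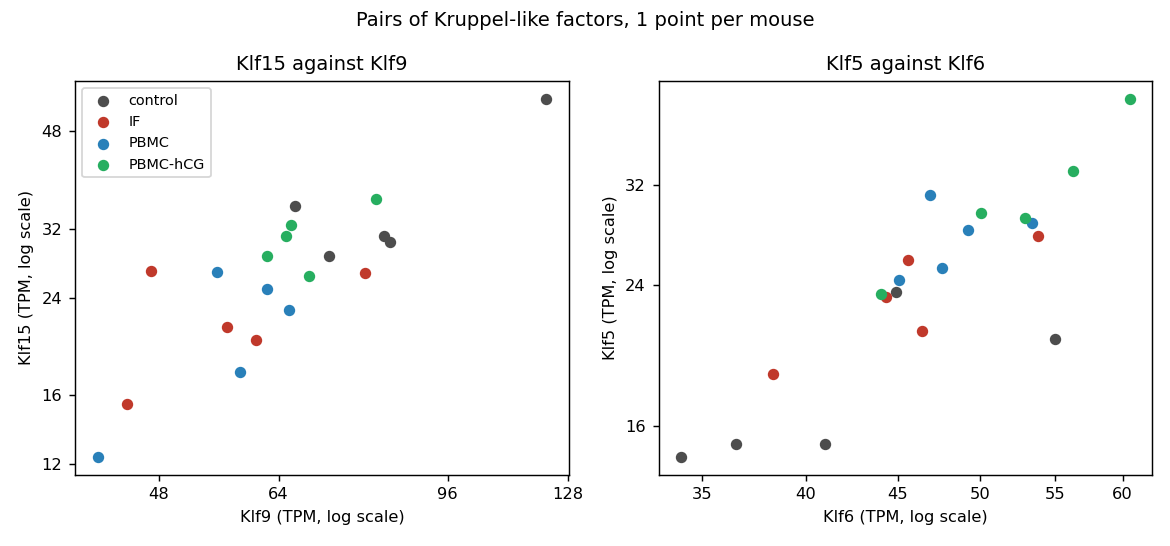
Klf15 against Klf9 (left) and Klf5 against Klf6 (right), each in TPM on log axes, with 1 point per mouse coloured by group. Both pairs rise together, with a Pearson r of 0.83 and 0.85 on the log2 scale, and control replicate 2 is the far upper right point on the left.

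The tested genes most like each member, by Pearson r over the 20 mice among genes averaging at least 1 TPM, were listed as a description. For Klf9 they were Dtd1 (r = 0.96, 0.92 after subtracting group means) and Vegfb (0.91 and 0.92). For Klf15 they were Fbxo31 (0.92 and 0.87) and Mertk (0.92 and 0.83). Klf3 was most like Dst (0.96 and 0.80), and Klf13 most like Steap3 (0.96 and 0.55) and Fgd5 (0.96 and 0.54). Klf2 was closest to Stard10 (0.87 and 0.90) and Baiap3 (0.86 and 0.87), and Klf4 to Ccnl1 (0.89 and 0.78) and Mafk (0.88 and 0.76). Klf5 came with Epb41l2 (0.91 and 0.78) and Acadl (0.91 and 0.85), and Klf6 with Itpkb (0.92 and 0.91) and Nceh1 (0.86 and 0.83). For Klf10, Cytip, a gene known from lymphocytes, had 0.77 and 0.74. Spearman's rho of these pairs ran from 0.52 to 0.94, and r without the 2 farthest mice from 0.72 to 0.95.

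Another 8 Kruppel-like factor genes were listed. Klf1, Klf14 and Klf17 were at 0 TPM in at least 1 mouse and were not tested, with group means of at most 0.496 TPM. Of the 5 tested, Klf7 rose in IF (0.39, SE 0.080, adjusted p = 0.00165), in PBMC (0.24, adjusted p = 0.0378) and in PBMC-hCG (0.41, adjusted p = 0.000925) against control. Klf7 was 16.8 TPM ± 0.818 (SD, n = 5) in control and 22.2 TPM ± 2.99 (SD, n = 5) in IF. Klf11, the SIN3A-binding relative of Klf10, and Klf12, a CtBP-binding relative of Klf3, were called in PBMC-hCG versus control only, by 0.92 (adjusted p = 0.0139) and 1.12 (adjusted p = 0.00809). Klf11 was 10.8 to 24.0 TPM in control and 19.0 to 35.3 TPM in PBMC-hCG. Klf12 was 4.52 to 6.53 TPM in PBMC-hCG. Its lowest control, at 0.855 TPM, lay far below the control median of 3.20 TPM, and the highest control was 3.97 TPM. Klf8 was 3.04 TPM ± 0.328 in control and 2.61 TPM ± 0.546 in IF, and Klf16 was 17.7 TPM ± 5.48 and 18.7 TPM ± 2.20 (SD, n = 5), with no call in any comparison. The related SP factors, which bind the same GC boxes, had 2 of 7 tested genes higher in each comparison with control, Sp1 and Sp3. Among all genes 13.4% were higher in IF, 12.8% in PBMC and 20.2% in PBMC-hCG. Sp3 went from 47.4 TPM ± 2.05 in control to 75.0 TPM ± 8.67 in IF (SD, n = 5), a log2 change of 0.66 (adjusted p = 9.39e-06), and was 0.52 higher in PBMC and 0.44 higher in PBMC-hCG.

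Of 11 cofactors and modifiers of these factors, 4 were higher and 0 lower in IF versus control, beside 13.4% and 8.53% of all genes. Kat2b, an acetyltransferase, rose by 0.70 (SE 0.056, adjusted p = 9.24e-08), from 24.0 TPM ± 1.15 to 39.2 TPM ± 1.88 (SD, n = 5), and the groups did not overlap. The acetyltransferases Crebbp (0.33) and Ep300 (0.25) and the corepressor subunit Sin3b (0.23) were also higher, while Sin3a was 30.3 TPM ± 1.73 in control and 31.8 TPM ± 1.90 in IF and was not called. In PBMC versus control 4 of 11 were higher, beside 12.8% of all genes, led by Kat2b (0.65), Crebbp (0.31) and Sin3b (0.25). In PBMC-hCG versus control 3 were higher, Kat2b (0.56), Crebbp (0.44) and Ep300 (0.36), and 1, Hdac2, was lower (-0.31). The shares of all genes there were 20.2% higher and 11.6% lower. PBMC-hCG versus IF called Sin3b lower (-0.21, adjusted p = 0.0349), a call lost without IF replicate 5 or PBMC-hCG replicate 3.

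Endothelial genes known to respond to KLF2 or KLF4, up or down, formed a list of 8, of which 7 could be tested. In IF versus control 5 of 7 were higher and 0 lower, beside 13.4% and 8.53% of all genes, with a median of 0.47 beside 0.02. Thbd, the thrombomodulin gene, went from 76.8 TPM ± 8.39 to 274 TPM ± 26.3 (SD, n = 5), a log2 change of 1.84 (SE 0.11, adjusted p = 4.99e-09). S1pr1, a receptor for sphingosine 1-phosphate, rose by 0.84 and Edn1, endothelin 1, by 0.79. KLF2 is known to raise Thbd and S1pr1 and to lower Edn1, so these members did not follow one known direction. Against control 4 of 7 were higher in PBMC (Thbd 1.72, S1pr1 0.58, Edn1 0.56) and 4 of 7 in PBMC-hCG (Thbd 1.405, Edn1 0.48, Tek 0.47). The shares of all genes higher were 12.8% and 20.2%. In PBMC-hCG versus IF 2 were lower, Nos3 by 0.60 (adjusted p = 0.0258) and Thbd by 0.43 (adjusted p = 0.0313), and both calls are lost without IF replicate 5 or PBMC-hCG replicate 3. Endothelial markers were higher in IF along with these genes and Klf4: the 7 markers (Pecam1, Cdh5, Kdr, Tie1, Emcn, Cldn5 and Eng) summed to 493 to 626 TPM in control, 799 to 851 in IF, 771 to 846 in PBMC and 796 to 908 in PBMC-hCG, and 6 of 7 were called higher in IF and 7 of 7 in PBMC-hCG, in which Klf4 was not called against control. Among controls, replicate 2 had the lowest endothelial sum and the highest Klf4. Eng was 74.1 to 120.3 TPM in control and, as the most abundant of the 7, 187 to 301 TPM in IF, and none of the 7 was at 0. Their part in these results was not tested.

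Upstream of Klf2 and Klf4, the MEK5-ERK5-MEF2 pathway relays blood flow to both genes. Of its 6 genes, IF versus control called Mef2d higher (0.29, adjusted p = 0.00514) and Mef2a lower (-0.55, adjusted p = 5.07e-05). PBMC versus control called Map3k3 (0.22) and Mef2d (0.22) higher and Mef2a lower (-0.62). PBMC-hCG versus control called 3 higher, led by Mef2c (0.32) and Map3k3 (0.28), and Mef2a lower (-0.53). The shares of all genes called were 21.9% in IF, 19.5% in PBMC and 31.8% in PBMC-hCG. Mef2a fell below the control range in all 3 groups.

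KLF15 is known to drive genes of amino acid and energy metabolism, and 6 were listed. Prodh, proline dehydrogenase and the best known of these targets, was lower in IF by 0.56 (SE 0.13, adjusted p = 0.00517) and in PBMC by 0.59 (adjusted p = 0.00398), and was 16.5 TPM ± 4.33 in control and 10.9 TPM ± 0.927 in IF (SD, n = 5). It was also lower in PBMC-hCG (-0.44, adjusted p = 0.016), in which Klf15 was not called. Bcat2, a branched-chain amino acid transaminase, was lower in PBMC (-0.39), and Kcnip2, a potassium channel subunit, was higher in PBMC-hCG (1.28), each against control. The list counted 0 higher and 1 lower of 6 in IF versus control, beside 13.4% and 8.53% of all genes. KLF15 is also known to restrain the MCM genes, which license DNA replication. Of the 6 MCM genes, 1, Mcm7, was called in IF versus control and was lower (-0.49, adjusted p = 0.00443), beside 8.53% of all genes. The median of the 6 was -0.52. The controls spread widely, from 4.94 to 64.6 TPM for Mcm5 and from 45.6 to 80.3 TPM for Mcm7. Against control, Mcm7 was lower in PBMC (-0.50), beside 6.7% of all genes. Mcm2 (-0.95) and Mcm7 (-0.41) were lower in PBMC-hCG, beside 11.6% of all genes. Klf15 and Mcm7 were thus both lower in IF, and the other MCM genes were not called there.

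Klf9 and Klf15 are themselves glucocorticoid-induced, so 10 other genes of that response were listed. In IF versus control 7 of 10 were lower and 2 higher, beside 8.53% and 13.4% of all genes, with a median of -1.11. Zbtb16, a hormone-induced zinc finger gene, fell by 3.95 (SE 0.23, adjusted p = 2.84e-09), from 36.2 TPM ± 5.999 to 2.42 TPM ± 1.16 (SD, n = 5). Fkbp5, a receptor chaperone, fell by 1.81 (adjusted p = 1.34e-07) and Tsc22d3, the leucine zipper gene GILZ, by 1.45 (adjusted p = 0.000124). In IF, Klf9 and Klf15 therefore moved in the direction of most of this list, by a smaller amount. The calls of Klf9 and Klf15 were lost without IF replicate 5. Progesterone induces several of the listed genes, and RU486 blocks both receptors, so the list does not separate the hormones. PBMC-hCG versus IF called Zbtb16 (0.85, adjusted p = 0.0326) and Tsc22d3 (0.77, adjusted p = 0.0363) higher and Sgk1 (-1.06) and Cdkn1a (-0.64) lower, and these calls are lost without IF replicate 5 or PBMC-hCG replicate 3. Against control, 7 of 10 were lower in PBMC, led by Zbtb16 (-3.87), Fkbp5 (-1.87) and Tsc22d3 (-1.27), and 1 higher, Dusp1 (1.03). PBMC-hCG versus control had 7 lower, led by Zbtb16 (-3.10), Fkbp5 (-2.17) and Errfi1 (-1.86), and 0 higher. Klf9 (-0.29, limma adjusted p = 0.191) and Klf15 (-0.18, limma adjusted p = 0.531) were not called there. The shares of all genes were 6.7% lower and 12.8% higher in PBMC, and 11.6% lower and 20.2% higher in PBMC-hCG.

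**Figure D4:**
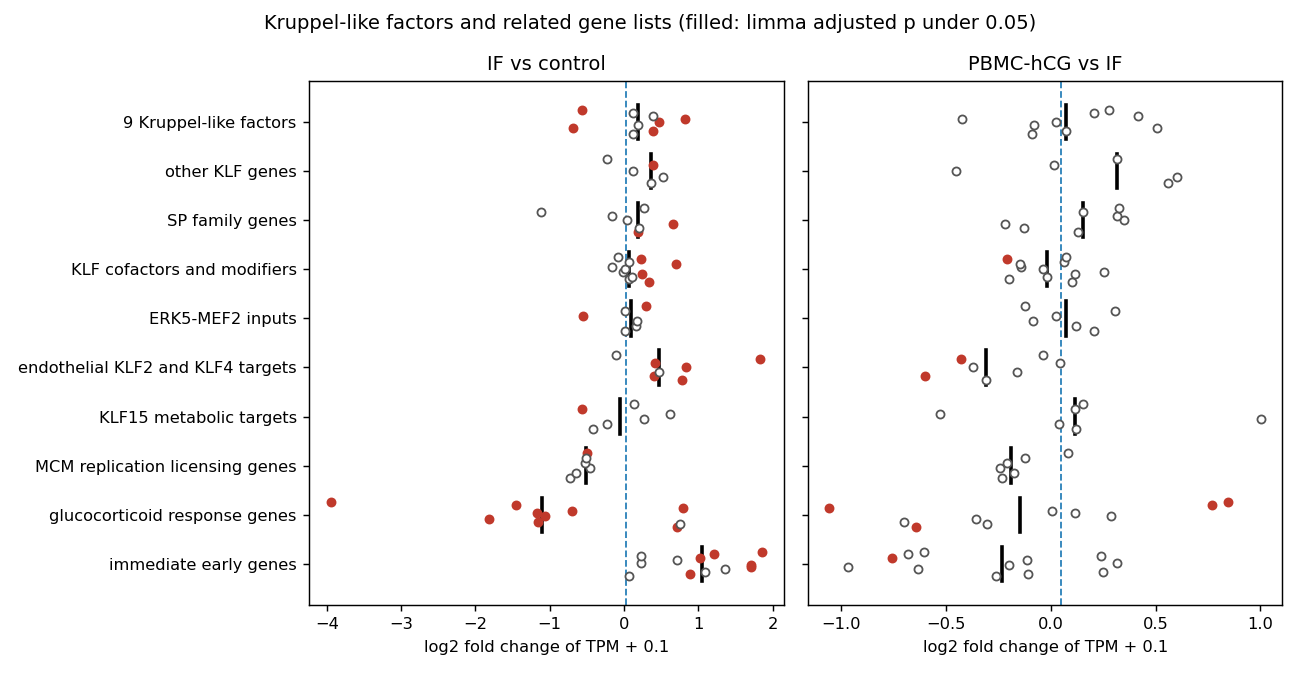
Log2 fold change of TPM + 0.1 (x axes) of each tested gene, by list (y axis), for IF versus control (left) and PBMC-hCG versus IF (right). Filled points have a limma adjusted p under 0.05, black bars are list medians and the dashed line is the median of all genes. In IF versus control the glucocorticoid response genes have a median of -1.11 and the immediate early genes a median of 1.05, beside 0.19 for the 9 Kruppel-like factors.

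Klf4, Klf6 and Klf10 are known as rapidly induced genes, so 12 immediate early genes were compared. In IF versus control 6 of 12 were higher and 0 lower, led by Nr4a1 (1.86, adjusted p = 0.0447), Egr3 (1.71, adjusted p = 0.00779) and Fos (1.71, adjusted p = 0.0325). Of the rapidly induced members Klf4 was called and Klf6 and Klf10 were not. PBMC versus control had 8 higher, led by Nr4a1 (2.16), Egr3 (2.02) and Fos (1.98), and PBMC-hCG versus control had 3, Fos (1.51), Btg2 (0.78) and Jun (0.47). The shares of all genes higher were 13.4% in IF, 12.8% in PBMC and 20.2% in PBMC-hCG. PBMC-hCG versus IF called Ier3 lower (-0.76, adjusted p = 0.0349), a call lost without IF replicate 5 or PBMC-hCG replicate 3.

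The summed epithelial markers tended to be higher where Klf5 was higher, but the single markers did not all follow it. The 7 markers (Krt8, Krt18, Krt19, Cdh1, Epcam, Krt7 and Foxa2) summed to 563 to 1029.6 TPM in control, 845 to 1077 in IF, 922 to 1210.5 in PBMC and 968 to 1248 in PBMC-hCG. The highest control sum was that of replicate 2, and the other controls reached 682 TPM. Krt18 led at 191 to 372 TPM in control and 342 to 489 TPM in PBMC-hCG, and none of the 7 was at 0. In PBMC-hCG versus control 4 of 7 were called higher and 1 lower, beside the Klf5 rise of 0.81. In IF versus control, where Klf5 was not called, 5 were higher and 1 lower. PBMC versus control had 4 higher and 0 lower. From IF to PBMC-hCG the log2 differences of Cdh1, Epcam and Krt7 were -0.04, -0.22 and -0.41. Those of Krt8, Krt18, Krt19 and Foxa2 were above 0. Smooth muscle markers went the other way, at 6190.3 to 11453 TPM in control and 5026 to 6339 TPM in PBMC-hCG, with 5 of 7 called lower. The part of cell composition in the Klf5 result was not tested.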

How the data were processed

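Per the labels, polyA RNA of uterine tissue was sequenced from stranded libraries of 20 mice, numbered only as replicates 1 to 5 of 4 groups, so p-values measure the spread between these samples. The authors deposited TPM per gene, which the submitters' processing notes credit to Trimmomatic, HISAT2 and StringTie on mm10 (versions not given in the sources used here). TPM keep no depth, so no counting error is given, and TPM are shares, so a change in abundant genes shifts others.

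Values were taken as log2(TPM + 0.1). Genes above 0 TPM in all 20 libraries entered a single linear model of the 4 groups (limma, version 3.58.1, under R version 4.3.3) whose prior variance followed mean expression, and p-values, all two-sided, were adjusted by Benjamini-Hochberg within each of 6 comparisons. The study's own test needs counts, so a test on the log scale took its place. Fold changes are on the log2(TPM + 0.1) scale. The model was tested on simulated data. Other software was data.table (1.17.8), Python (3.11.15), pandas (2.3.3) and matplotlib (3.10.9).

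The members and all lists were chosen with earlier results of these data known. Named were all members, all other Kruppel-like factors, up to 3 called genes per list and comparison, and the 2 genes most like each member, of which 1 for Klf3 and 1 for Klf10 are not reported here. Beyond that rule, Sin3b, Hdac2, Cdkn1a and Dusp1 were named after their values were seen, to complete small counts. Alternatives were other pseudocounts, filters, scalings, call rules, a replicate block and leaving out each mouse.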

Additional observations from a re-analysis of the deposited data

Results flagged for a closer look

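In 7 of 36 sets of 5 mice (9 members in 4 groups), a single mouse lay further from the others than Dixon's 95% limit for 5 values, a gap of 0.71 of the range. Chance alone gives about 1 such set in 20. Of the 7, 5 were control replicate 2. There Klf2 was 113 TPM against 47.7 to 60.3 TPM in the other controls, and Klf3 was 48.5 TPM against 39.7 to 41.8 TPM. Klf4 was 51.2 TPM against 30.1 to 33.2 TPM, Klf10 was 31.7 TPM against 22.6 to 24.9 TPM, and Klf15 was 54.9 TPM against 28.5 to 35.1 TPM. This is the library with the highest adipose marker sum, 584 TPM, and the lowest stromal marker sum, 5142 TPM. Its Klf13, at 31.9 TPM, lay inside the range of the other controls, 30.5 to 34.99 TPM, as did its Klf5. The other sets were Klf2 in IF replicate 3, at 121 TPM against 53.5 to 67.8 TPM, and Klf10 in PBMC-hCG replicate 4, at 32.8 TPM against 22.6 to 25.5 TPM.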

How the results depend on the processing

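Of 1728 refits of single members, 1632 kept their direction and their side of the threshold, 51 lost a call, 11 gained one and 34 changed sign; none of those 34 was called and the largest was 0.12 in size. Asking for a fold change of at least 2 with a raw p under 0.05 left 0 members in IF, PBMC or PBMC-hCG versus control, and an adjusted p under 0.05 with a fold change of at least 1.5 left 2, 3 and 1. Leaving out each mouse gave 3 to 6 members for IF versus control, 5 to 7 for PBMC versus control, 3 to 5 for PBMC-hCG versus control, 0 to 1 for PBMC-hCG versus IF and 0 for both other comparisons. The all-gene counts of the 3 control comparisons then ran from 3323 to 5012, 2959 to 4628 and 4756 to 7513. With all mice they were 4104, 3653 and 5941. Fitted on their 2 groups alone, PBMC-hCG versus IF gave 1 (Klf15). Without the 2 libraries of highest adipose marker sum (chosen after seeing the data) the 3 control comparisons gave 4, 7 and 5 members. IF versus control then called 4570 genes in all. The replicate numbers did not pair the mice: same-numbered deviations correlated from -0.25 to 0.46, 8 of 30 above 0.1, and in 7 of 30 pairings of a mouse with another group the best match had its own number. With a replicate block the control comparisons gave 5, 5 (Klf4 lost) and 4 members and the rest 0. Sign changes under median scaling were Klf13 in PBMC versus IF (-0.015), Klf3 in PBMC-hCG versus IF (-0.017) and Klf10 in PBMC-hCG versus control (-0.043). Under quantile normalization they were Klf3 in PBMC-hCG versus PBMC (0.016) and Klf10 in PBMC-hCG versus control (-0.022). Without the adipose pair they were Klf3 and Klf13 in PBMC versus IF (-0.0013 and -0.016), Klf3 in PBMC-hCG versus IF (-0.0092) and Klf2 in PBMC versus control (0.031). With 1 mouse left out, Klf2 ranged from -0.0083 to 0.41 in IF versus control, from -0.30 to 0.031 in PBMC versus control, from -0.072 to 0.33 in PBMC-hCG versus control and from -0.26 to 0.12 in PBMC-hCG versus IF. In PBMC versus IF, Klf3 ranged from -0.0013 to 0.11, Klf9 from -0.096 to 0.11, Klf10 from -0.058 to 0.10, Klf13 from -0.016 to 0.033 and Klf15 from -0.22 to 0.073. Klf3 ranged from -0.0092 to 0.099 in PBMC-hCG versus IF and from -0.047 to 0.025 in PBMC-hCG versus PBMC, and Klf10 from -0.062 to 0.12 in PBMC-hCG versus control. Over all genes, IF versus control called 2473 in the fit of its 2 groups alone against 4104, and PBMC-hCG versus IF called 812 with no filter and 3 without the adipose pair against 2544. The cause was not tested.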
